A study of Homo sapiens with 16 samples.

Results

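Lysosomes are acidic compartments in which hydrolases break down material brought by endocytosis or by autophagy, the pathway that wraps parts of the cytoplasm in a double membrane and delivers them for digestion. The V-ATPase is the proton pump that acidifies the lysosome, and its soluble V1 domain turns the energy of ATP into proton transport through the membrane-bound V0 domain. Many genes of this system carry a CLEAR element in their promoters, an E-box with fixed flanks that is read by the MiT factors TFEB, TFE3 and MITF, and the same E-box core is bound by MYC with its partner MAX.

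RNA levels of 38 genes of this system were described in 4 non-small cell lung cancer cell lines. The genes were taken from a list of symbols, and all 38 were found among the 28951 genes of the expression table. They comprise 3 transcription factors, 5 genes of the lysosomal membrane, its calcium channel and sterol transport, 5 cathepsins, 6 genes for glycosidases and their activator, 7 V-ATPase subunits, 5 genes of autophagosome initiation and nucleation, 5 of conjugation and the ATG8 proteins, and 2 cargo receptors. Cells had received the combination of 5 µM MYCi975, an inhibitor of MYC, and 25 µM TMP195, an inhibitor of class IIa histone deacetylases, or DMSO as the vehicle, for 48 hours from 1 day after plating, in RPMI with 10% fetal bovine serum. The study calls 2 of the lines responsive (H460, H1703) and the other 2 non-responsive (HCC827, H441). Every line had 2 total RNA libraries with the combination and 2 with vehicle, and the labels do not say whether these came from separate cultures, so p-values measure the spread between libraries, which may be technical. Cells given either agent alone were not analysed here.

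The 16 libraries held 8493271 to 13604150 reads in the listed genes. Values below are normalised reads, which are reads recovered from the deposited log2 values and scaled between libraries by the authors' size factors, and a change is the combination mean minus the vehicle mean on the deposited log2 scale. Changes were tested with limma over 23968 genes, and a gene was called at a Benjamini-Hochberg adjusted p under 0.05. All 38 genes passed the filter on low values. All 5 epithelial markers were abundant in HCC827 and H441. In H460 the 3 keratins among them were abundant too, with 17100 to 20100 normalised reads of KRT8, while EPCAM and CDH1 had at most 8.80. In H1703 the 5 summed gave 225 to 229 with the combination and 257 to 261 with vehicle. Of 16 markers of other cell types 7 had a row in the table, of which VWF reached at most 4.73 normalised reads, PECAM1 10.1, CD14 20.5, CSF1R 56.3, LUM 104 and COL1A1 133. PDGFRA was at 0 in H460 and HCC827 and abundant in H1703, where the 7 summed gave 4700 to 4740 with the combination and 10600 to 11400 with vehicle. The sum was 16 to 16.3 with the combination and 71.6 to 82.2 with vehicle in H460, 56.5 to 89.5 and 87.3 to 107 in HCC827, and 162 to 172 and 198 to 250 in H441. Summed alveolar lineage markers were lower with the combination in HCC827 (434 to 529, against 1050 to 1100 with vehicle) and in H441 (1530 to 1700, against 2750 to 2840). Summed mesenchymal markers were higher in H460 (13000 to 18500, against 7050 to 8060) and in H1703 (14400 to 15400, against 9080 to 10200), and summed squamous markers were lower in H1703 (21.8 to 22.9, against 179 to 200). These mesenchymal sums were nearly all VIM, with CDH2 at most 10.2 in H460 and 212 in H1703. The squamous sum in H1703 was nearly all SOX2, with TP63 at most 2.18 and no row for KRT5. The part of all these markers in the results was not tested.

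Promoter sequences are shown first because the CLEAR element is read by the MiT factors and its core is bound by MYC. Binding to these promoters was not measured. RefSeq promoters of GRCh38.p14, reaching from 250 bases before to 50 bases after a start site, were found for 28 of the 38 genes. The E-box core CACGTG stood in 7 of these 28 genes (25%), against 8.77% of 27305 genes with a promoter. TCACGTGA, which contains that core together with the CLEAR flanks, stood in 5 of the 28 (17.9%), against 1.18% of all. Since many genes of this system are known to carry the element, this excess is not an independent result. Both strings read the same on either strand, so each match counts once. The 5 genes were LAMP1, MCOLN1, CTSA, GAA and ATP6V0D1, and CTSD and NEU1 had the core alone. Stretches upstream of their RefSeq start sites are printed 5′ to 3′ on the gene's strand, with TCACGTGA in capitals where it occurs and otherwise CACGTG. They are chr13:113297039-113297238 on the plus strand for LAMP1, chr19:7522524-7522623 on the plus strand for MCOLN1, chr20:45891235-45891334 on the plus strand for CTSA, chr17:80101481-80101580 on the plus strand for GAA, and chr16:67481158-67481257 on the minus strand for ATP6V0D1.
LAMP1: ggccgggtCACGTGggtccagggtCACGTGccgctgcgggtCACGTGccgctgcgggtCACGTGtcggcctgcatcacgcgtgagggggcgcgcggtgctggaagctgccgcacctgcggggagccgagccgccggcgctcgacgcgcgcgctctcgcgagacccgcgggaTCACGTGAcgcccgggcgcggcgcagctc
MCOLN1: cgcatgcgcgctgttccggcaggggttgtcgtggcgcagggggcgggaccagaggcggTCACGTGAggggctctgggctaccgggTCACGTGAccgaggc
CTSA: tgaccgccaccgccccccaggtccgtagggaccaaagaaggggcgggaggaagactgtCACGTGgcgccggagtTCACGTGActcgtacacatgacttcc
GAA: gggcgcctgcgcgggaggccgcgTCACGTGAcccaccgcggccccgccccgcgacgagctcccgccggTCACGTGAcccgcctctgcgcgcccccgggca
ATP6V0D1: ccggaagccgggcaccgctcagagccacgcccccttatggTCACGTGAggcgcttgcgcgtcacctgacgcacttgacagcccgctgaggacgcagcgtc
The LAMP1 stretch holds 5 E-box cores, 1 of them with the CLEAR flanks. It ends at the start site and cuts through a further flanked copy that begins at position -2. The whole LAMP1 promoter holds 6 cores, 2 of them flanked. MCOLN1 and GAA each hold 2 copies of the flanked form, CTSA holds 1 flanked and 1 unflanked core, and ATP6V0D1 holds 1 flanked copy. TGATGCAA, the core of the composite element bound by ATF4 and C/EBP factors, was in none of the 28, against 1.08% of all genes. TGACTCA, the AP-1 motif, was in the TFE3 promoter only (3.57% of the 28), against 6.05% of all. Both were searched on both strands, and neither contains the E-box core. As described below, the 5 genes with the flanked E-box did not move alike: GAA rose in 3 lines, ATP6V0D1 fell in 2, LAMP1 and CTSA rose in one line and fell in another, and MCOLN1 was called in none.

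With the combination, the protease gene CTSL rose in all 4 lines, the autophagosome gene WIPI1 and the glycosidase genes GAA and HEXA rose in 3, and 5 of the 7 V-ATPase subunit genes among the 38 fell in H1703. The CTSL call in H441 was lost under 7 of 25 alternative fits. In H460, 19 of the 38 genes were called, against 26.7% of all genes tested, with 13 higher and 6 lower, against 14.1% and 12.6%. In H1703, 25 were called, against 35.5%, with 15 higher and 10 lower, against 17.9% and 17.6%. HCC827 had 11 called, against 9.92%, with 9 higher and 2 lower, against 4.42% and 5.5%. H441 had 3 called (CTSB, CTSL and SQSTM1), against 4.63%, all higher and none lower, against 2.77% and 1.86%. The 38 are well expressed genes, and among the 15342 genes kept by a stricter filter the called shares were 40.9% in H460, 52.2% in H1703, 16.9% for HCC827 and 8.45% for H441. These shares come from a separate fit, while the counts of the 38 above come from the main one. In that separate fit ATP6V1B2 and BECN1 were also called in H1703, and LAMP2 and ATP6V0D1 in H441, and no call of the 38 was lost. The median change of the 38 genes was 0.14, 0.03, 0.12 and 0.15 in the same order, against 0.05, 0.08, 0.00 and 0.00 for all genes tested. In H441 the share of the 38 genes called was near that of all genes. RNA from bulk cultures does not tell less RNA per cell apart from fewer cells of a kind.

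The split into higher and lower depends on the scaling, for all genes as for the 38. When each library was centred on its own median, the median change of all genes moved by -0.194 in H460, -0.242 in H1703 and -0.21 in the difference of responses. The H1703 split of the 38 was then 11 higher and 14 lower, against 15 and 10 as deposited, and the share of higher genes among all called was 31.1%, against 50.4%. In H441, scaling by library totals gave 2 higher and 2 lower, against 3 and 0, and the share among all called was 37.5%, against 59.9%. No called change of a single gene turned its sign under any scaling. The H441 count rose to 7 without either H460 combination library and fell to 1 without H441 combination replicate 1 or either H441 vehicle library. The HCC827 count fell to 5 without combination replicate 2 and to 7 without vehicle replicate 1.

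**Figure D1:**
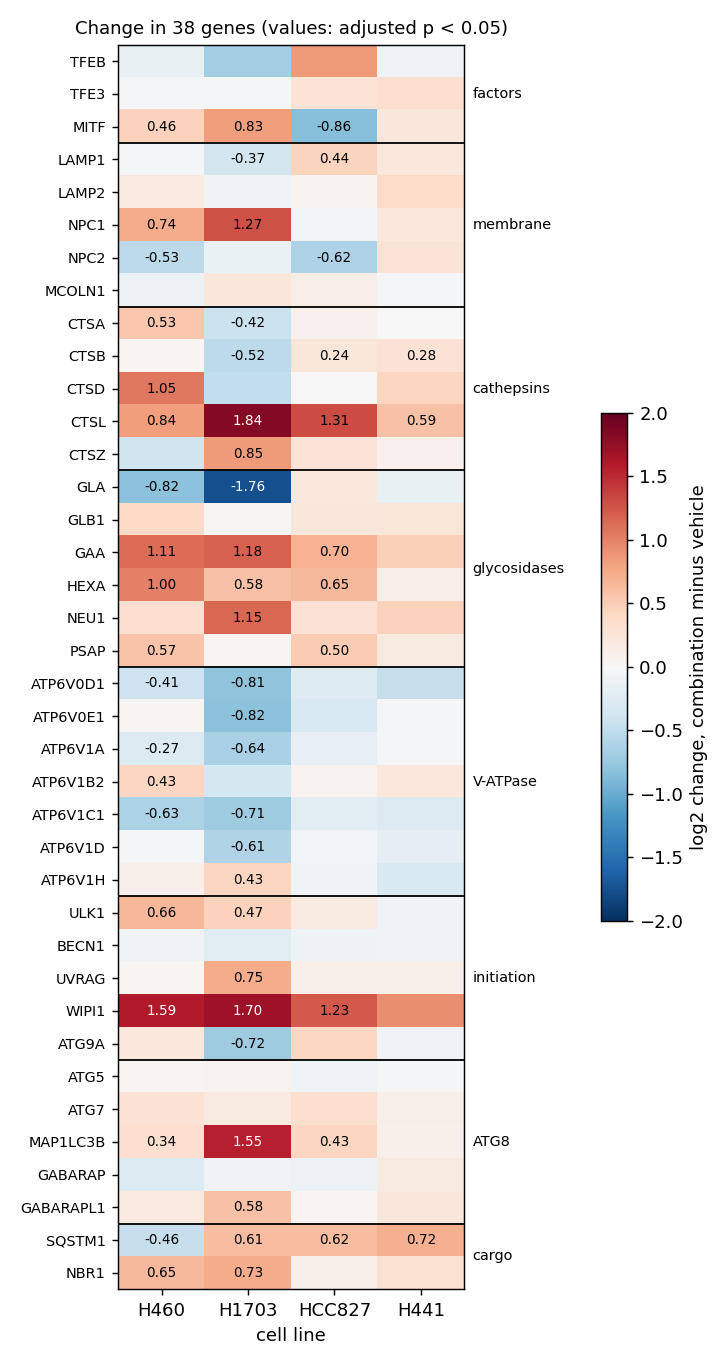
Change with the combination, on the deposited log2 scale as combination minus vehicle, for 38 genes (rows, by role) in 4 cell lines (columns). Colour gives the change from -2 to 2, and a number is printed where the adjusted p was under 0.05. The CTSL and SQSTM1 rows carry numbers in all 4 columns, CTSL with one sign and SQSTM1 with both, and the V-ATPase block is mostly blue in H1703.

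Across the lines, 29 of the 38 genes were called in at least 1 line. Of these, 16 were higher only, 8 lower only, and 5 (MITF, LAMP1, CTSA, CTSB and SQSTM1) were higher in one line and lower in another. CTSL was the only one of the 38 called higher in all 4 lines, which 0.505% of all genes tested were, and its H441 call was not kept by every alternative fit. None was called lower in all 4, against 0.384% of all genes. GAA, HEXA, WIPI1, MAP1LC3B and SQSTM1 were called higher in 3 lines. TFEB, TFE3, LAMP2, MCOLN1, GLB1, BECN1, ATG5, ATG7 and GABARAP were called in no line. Apart from calls in all 4 lines, the shares of all genes with these patterns were not computed. In single lines 26.7% of all genes tested were called in H460 and 35.5% in H1703, so these counts are not read as particular to the 38. The change differed among the 4 lines for 23 of the 38 genes by a moderated F test, against 31.8% of all genes.

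Of the MiT factors, which bind CLEAR elements and drive lysosomal genes, only MITF was called within a line by limma on the log2 values, and it moved in opposite directions. MITF had 263 and 291 normalised reads in combination libraries of H460 against 209 and 192 in vehicle libraries, and 162 and 155 against 86.7 and 89.7 in H1703. In HCC827 it had 674 and 591 with the combination against 1174 and 1120 with vehicle, and in H441 it had 370 and 326 against 320 and 276. The groups did not overlap in any line, and HCC827 was the one line in which the combination libraries were the lower ones. The log2 change was 0.46 ± 0.12 in H460 (SE, adjusted p = 0.00624 by limma), 0.83 in H1703 (adjusted p = 1.34e-05) and -0.86 in HCC827 (adjusted p = 8.02e-05), while that in H441 (0.22) missed the threshold (adjusted p = 0.361). The H460 call of MITF was lost without combination replicate 2 (adjusted p = 0.058) or vehicle replicate 2 (adjusted p = 0.0617), and with median centring its value was 0.265 (adjusted p = 0.151).

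TFEB, the factor best known for driving lysosome formation, had the lowest mean level per length over the vehicle libraries of the 4 lines, although not the lowest within H1703 or H441. It had 25.5 and 28.5 normalised reads in H460 with the combination against 32.3 and 28.3 with vehicle, and 71.9 and 86.7 against 135 and 124 in H1703. The H441 values were 46.3 and 43.6 with the combination and 46.4 and 48.8 with vehicle. Only in H1703 did the libraries lie clearly apart, and the change of -0.70 ± 0.43 there missed the threshold (SE, adjusted p = 0.231). It was called lower by limma voom on the recovered reads (-0.68, adjusted p = 0.00429) and by a fit of the 4 H1703 libraries alone (adjusted p = 0.0231). In HCC827 TFEB was close to undetected, with 5 reads over the combination libraries and 3 over the vehicle libraries, a ratio of 1.56 with a 95% exact binomial interval of 0.304 to 10.1 that covers counting error only. Without HCC827 vehicle replicate 2 the vehicle side rests on a library with 0 reads of TFEB, and the fit then called it in HCC827 (adjusted p = 0.00318) and in the difference of responses (adjusted p = 0.0036). TFE3, its relative on the X chromosome, had 885 and 904 normalised reads with the combination and 886 and 944 with vehicle in H460, and 382 and 415 against 417 and 397 in H1703. It had 232 and 281 against 207 and 213 in HCC827, and 418 and 434 against 342 and 333 in H441. TFE3 libraries overlapped in both responsive lines and lay higher with the combination in both non-responsive lines. No single line was called for TFE3 (adjusted p = 0.0771 in H441 and 0.103 in HCC827), but HCC827 was without its combination replicate 1 (adjusted p = 0.0314). Over the 2 non-responsive lines together TFE3 rose by 0.31 ± 0.07 (SE, adjusted p = 0.00876).

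Among genes of the lysosomal membrane and sterol transport, NPC1, which exports cholesterol from the lysosome, rose in both responsive lines. It had 967 and 1068 normalised reads with the combination against 605 and 608 with vehicle in H460, and 1704 and 1753 against 727 and 701 in H1703. The HCC827 values were 1258 and 1217 against 1272 and 1305, and those of H441 were 871 and 782 against 721 and 712. The combination libraries stood far above vehicle in H460 and H1703, and just below it in HCC827. The change was 0.74 ± 0.08 in H460 (SE, adjusted p = 6.29e-07) and 1.27 ± 0.08 in H1703 (adjusted p = 2.54e-10), and it was -0.06 in HCC827 and 0.20 in H441 (adjusted p = 0.752 and 0.183). NPC1 shares 604 bases of exon with RMC1 on the other strand, and the sources used here do not give the strand setting of the counting.

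NPC2, the soluble partner that hands cholesterol to NPC1, did not follow it. NPC2 had 43.8 and 33.1 normalised reads in H460 with the combination against 51.9 and 60.6 with vehicle, and 262 and 230 against 318 and 452 in HCC827. It fell in both of these lines, by 0.53 in H460 (adjusted p = 0.0333) and by 0.62 in HCC827 (adjusted p = 0.0302). The H460 call was lost without combination replicate 2 (change -0.336) or vehicle replicate 2 (change -0.419). Limma voom on the recovered reads did not make that H460 call under either scaling (adjusted p = 0.216 and 0.125). The HCC827 call was lost without combination replicate 1, combination replicate 2 or vehicle replicate 2 (changes -0.715, -0.525 and -0.368). Both calls were lost in a limma fit of the 4 libraries of the line alone (adjusted p = 0.201 in H460 and 0.124 in HCC827). They were also lost with neither the trend nor the robust setting of limma (adjusted p = 0.0786 and 0.103).

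LAMP1, a main glycoprotein of the lysosomal membrane, went opposite ways in 2 lines. LAMP1 had 1660 and 1702 normalised reads in HCC827 with the combination against 1275 and 1197 with vehicle, a rise of 0.44 ± 0.09 (SE, adjusted p = 0.00334). In H1703 it had 1174 and 1516 against 1685 and 1760.0, and it fell by 0.37 (adjusted p = 0.0034). Without combination replicate 1 the change in H1703 was -0.183 (adjusted p = 0.129), and with quantile normalisation it was -0.131 (adjusted p = 0.312). The HCC827 rise was lost with neither the trend nor the robust setting of limma (adjusted p = 0.0704). LAMP1 had 1114 and 1100.0 against 1134 and 1140.0 in H460, and 1734 and 1776 against 1524 and 1515 in H441, and neither was called. LAMP2, the second major membrane glycoprotein and the one with a role in chaperone-mediated autophagy, and MCOLN1, the lysosomal calcium channel, were called in no line. Their largest changes were 0.37 in H441 for LAMP2 (adjusted p = 0.059) and 0.22 in H1703 for MCOLN1 (adjusted p = 0.614), which had at most 133 normalised reads in any library.

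The cathepsins are the proteases of the lysosome, and of the 5 genes 3 rose in H460, 2 fell and 2 were called higher in H1703 (CTSL, and CTSZ on few reads), and 2 rose in HCC827 and in H441. Of all genes tested, 26.7%, 35.5%, 9.92% and 4.63% were called in H460, H1703, HCC827 and H441. CTSL, a cysteine protease, was the only one of the 5 with a call in every line. CTSL had 8138 and 9818 normalised reads with the combination against 4746 and 5262 with vehicle in H460. In H1703 it had 1447 and 1532 against 416 and 411, and in HCC827 649 and 658 against 284 and 241. In H441, where it was scarce, it had 159 and 103 against 80.6 and 87.9. All combination libraries stood above all vehicle libraries of the same line, and the gap was narrowest in H441. The change was 0.84 ± 0.14 in H460 (SE, adjusted p = 0.000145), 1.84 in H1703 (adjusted p = 3.9e-09), 1.31 in HCC827 (adjusted p = 5.27e-06) and 0.59 in H441 (adjusted p = 0.0219). The change of CTSL differed among the 4 lines (F test, adjusted p = 0.000312). The H441 call was lost under 7 of the 25 alternatives. It was lost without combination replicate 1 (change 0.277) and without vehicle replicate 1 or 2 (changes 0.527 and 0.647). Limma voom on the recovered reads did not call it under either scaling (adjusted p = 0.287 in both). Nor did a limma fit of the 4 H441 libraries alone (adjusted p = 0.432) or limma with neither the trend nor the robust setting (adjusted p = 0.175).

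CTSB, another cysteine protease and the most abundant cathepsin of H441, fell in one line and rose in others. It had 421 and 450.0 normalised reads in H1703 with the combination against 629 and 623 with vehicle, a fall of 0.52 (adjusted p = 4.36e-06). In HCC827 it had 2222 and 2361 against 1905 and 1969, and in H441 9614 and 9646 against 8141 and 7688. These rises were small, 0.24 in HCC827 (adjusted p = 0.0283) and 0.28 in H441 (adjusted p = 0.0199), with no overlap of libraries. Each was lost without some library of its own line. In HCC827 these were combination replicate 2 and either vehicle replicate (adjusted p = 0.22, 0.169 and 0.0774), and in H441 combination replicate 1 or 2 and vehicle replicate 1 or 2 (adjusted p = 0.106, 0.12, 0.0642 and 0.191). In H460, CTSB had 1187 and 1167 against 1134 and 1149 and was not called.

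CTSA, a carboxypeptidase that also protects the enzymes of GLB1 and NEU1, had 437 and 423 normalised reads in H460 with the combination against 309 and 284 with vehicle. It rose by 0.53 there (adjusted p = 0.0012). In H1703 it had 368 and 471 against 561 and 556 and fell by 0.42 (adjusted p = 0.00596), a call that was lost without combination replicate 1 (adjusted p = 0.156). CTSA shares 1038 bases of exon with NEURL2, 430 with AL008726.1 and 200 with PLTP, all on the other strand. CTSD, the main aspartic protease, had 277 and 284 in H460 with the combination against 126 and 143 with vehicle and rose by 1.05 ± 0.21 (SE, adjusted p = 0.000823). It was called in no other line, with values of -0.49 in H1703, 0.01 in HCC827 and 0.43 in H441, but in H1703 it was called lower with median centring (-0.73, adjusted p = 0.00764) and with quantile normalisation (-0.73, adjusted p = 0.0103). CTSD shares 1304 bases of exon with AC068580.4 on the same strand, so its reads are uncertain. CTSZ, a cysteine carboxypeptidase, had 702 and 687 normalised reads in H460 with the combination against 895 and 928 with vehicle, and this gap of -0.39 missed the threshold (adjusted p = 0.244). It was called by limma voom on the recovered reads (adjusted p = 0.00145) and by a fit of the 4 H460 libraries alone (adjusted p = 0.0363). In H1703 CTSZ was called higher by the fit on 3 reads over the combination libraries and 1 over the vehicle libraries, a ratio of 3.37 (95% exact interval 0.27 to 177, for counting error only), so no difference was detectable at this depth. Without combination replicate 2 or vehicle replicate 1 of H1703 the adjusted p of CTSZ was 0.058 and 0.197.

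**Figure D2:**
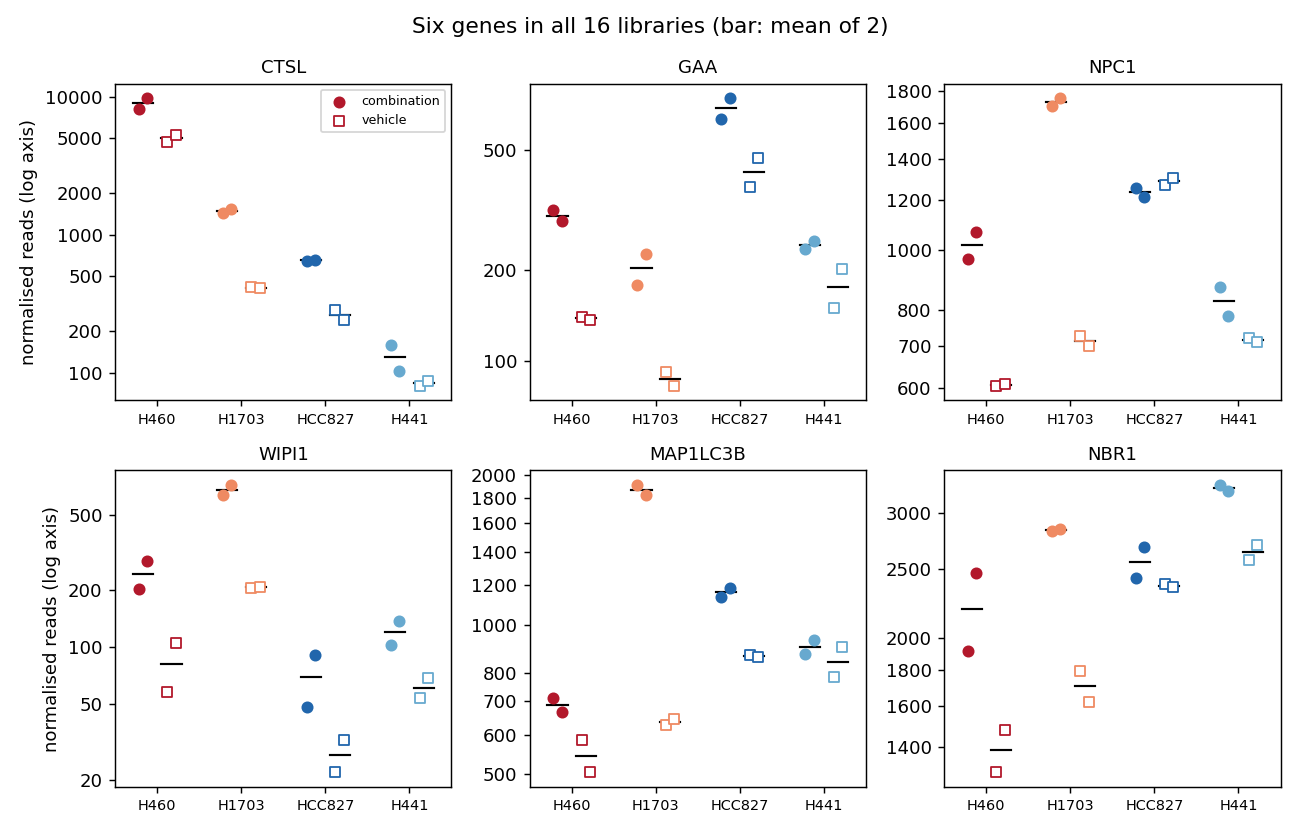
Normalised reads (log axis) of CTSL, GAA, NPC1, WIPI1, MAP1LC3B and NBR1 in all 16 libraries, by cell line. Filled circles are combination libraries, open squares vehicle libraries, and bars the mean of 2. In H460 and H1703 the combination libraries of all 6 genes lie above the vehicle libraries, whereas MAP1LC3B overlaps in H441 and NPC1 lies slightly lower in HCC827.

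Of the 6 genes for enzymes that cut sugar chains and their activator, 3 rose and 1 fell in H460 and in H1703, 3 rose in HCC827 and none was called in H441, where 2 had an unadjusted p under 0.05 and limma voom called 0. The one that fell was GLA. The shares of all genes called in H460, H1703, HCC827 and H441 were 26.7%, 35.5%, 9.92% and 4.63%. GAA, the acid alpha-glucosidase that breaks down lysosomal glycogen, had 315 and 290 normalised reads with the combination against 140 and 137 with vehicle in H460. It had 179 and 225 against 91.6 and 82.7 in H1703, and 631 and 741 against 375 and 469 in HCC827. The H441 values were 234 and 250 against 149 and 202. No library overlapped in any line. GAA rose by 1.11 ± 0.16 in H460 (SE, adjusted p = 1.68e-05), by 1.18 in H1703 (adjusted p = 5.24e-06) and by 0.70 in HCC827 (adjusted p = 0.00622), and its value of 0.47 in H441 missed the threshold (adjusted p = 0.0996). The HCC827 call of GAA was lost without combination replicate 2 (adjusted p = 0.11) or vehicle replicate 1 (adjusted p = 0.122).

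HEXA, the alpha subunit of beta-hexosaminidase, which degrades gangliosides, had 239 and 244 normalised reads in H460 with the combination against 99.8 and 142 with vehicle. It had 200 and 217 against 128 and 151 in H1703, and 172 and 232 against 130 and 123 in HCC827. HEXA rose in these 3 lines, by 1.00, 0.58 and 0.65 (adjusted p = 0.00017, 0.0131 and 0.0197). It was at 166 and 166 against 139 and 164 in H441 (adjusted p = 0.786). Its H1703 call was lost without combination replicate 2 (adjusted p = 0.0864) or vehicle replicate 1 (adjusted p = 0.129), and its HCC827 call without combination replicate 2 or either vehicle replicate (adjusted p = 0.271, 0.0829 and 0.12). HEXA overlaps an antisense gene over 1273 bases of exon, so its reads are uncertain.

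NEU1, a sialidase, had 224 and 236 normalised reads in H1703 with the combination against 103 and 101 with vehicle and rose there by 1.15 ± 0.19 (SE, adjusted p = 8.48e-05). It was not called in the other lines, where its changes were between 0.29 and 0.46. PSAP, the precursor of the saposins that help lipid-cutting enzymes reach their substrates, had 3525 and 3479 in H460 with the combination against 2479 and 2229 with vehicle, and 5324 and 6109 against 3840.0 and 4212 in HCC827. PSAP rose by 0.57 and 0.50 there (adjusted p = 3.37e-05 and 0.000712), one line from each class. GLB1, the lysosomal beta-galactosidase, was called in no line, with changes between 0.02 and 0.39.

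GLA, the alpha-galactosidase that is missing in Fabry disease, fell in both responsive lines. It had 509 and 584 normalised reads in H460 with the combination against 906 and 1028 with vehicle, and 77.3 and 83.5 against 262 and 295 in H1703. In HCC827 it had 128 and 121 against 116 and 98.2, and in H441 95.7 and 83.5 against 98.3 and 99.8. The groups were far apart in both responsive lines and close together in the other 2. The change was -0.82 ± 0.14 in H460 (SE, adjusted p = 0.000139) and -1.76 in H1703 (adjusted p = 5.32e-09), and it missed the threshold in HCC827 (0.21, adjusted p = 0.414) and H441 (-0.14, adjusted p = 0.689). GLA kept both calls under all 25 alternatives.

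Of the 7 V-ATPase subunit genes, most fell in H1703. There 5 fell, 1 rose and 1 missed the threshold, with a median change of -0.64, against 0.08 for all genes tested. In H460, 3 fell and 1 rose, with a median of -0.03, and in HCC827 and H441 none was called by limma, with medians of -0.16 and -0.18. In each of these 2 lines 2 of the 7 had an unadjusted p under 0.05, and limma voom called 1 in HCC827 and 0 in H441. Over the 2 responsive lines 5 of the 7 fell and none rose, against 17.9% lower and 20.6% higher among all genes. Within H460, H1703, HCC827 and H441, 26.7%, 35.5%, 9.92% and 4.63% of all genes were called. The 5 falls in H1703 stayed called when voom was scaled by library totals, which moved the median of all genes there by 0.157.

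ATP6V0D1, a V0 subunit that links the stalk to the membrane ring, had 180 and 165 normalised reads with the combination against 229 and 231 with vehicle in H460. It had 79.5 and 66.2 against 126 and 132 in H1703, 260.0 and 229 against 290 and 297 in HCC827, and 116 and 118 against 161 and 165 in H441. The combination libraries lay below the vehicle libraries in all 4 lines. The change was -0.41 ± 0.14 in H460 (SE, adjusted p = 0.0302), -0.81 in H1703 (adjusted p = 8.89e-05), -0.26 in HCC827 (adjusted p = 0.275) and -0.47 in H441 (adjusted p = 0.0545). The H460 call of ATP6V0D1 was lost without combination replicate 2 (adjusted p = 0.143), vehicle replicate 1 (adjusted p = 0.0975) or vehicle replicate 2 (adjusted p = 0.106).

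ATP6V1C1, a V1 subunit that takes part in joining V1 to V0, had 318 and 380 normalised reads with the combination against 530 and 550 with vehicle in H460, and 822 and 809 against 1333 and 1338 in H1703. It had 3817 and 3652 against 4461 and 4210.0 in HCC827, and 664 and 721 against 874 and 794 in H441. It too was lower in all combination libraries than in all vehicle libraries of the same line. ATP6V1C1 fell by 0.63 in H460 (adjusted p = 1.52e-05) and by 0.71 in H1703 (adjusted p = 2.28e-06), and missed the threshold in HCC827 and H441 (-0.21 and -0.27, adjusted p = 0.148 and 0.0972). Over the 2 non-responsive lines together it fell by 0.24 (adjusted p = 0.0148).

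ATP6V1A, the catalytic subunit that binds ATP, had 334 and 367 normalised reads in H1703 with the combination against 537 and 561 with vehicle. It fell there by 0.64 (adjusted p = 1.7e-05). In H460 it had 715 and 746 against 847 and 913, a change of -0.27 (adjusted p = 0.0416). That H460 call of ATP6V1A was lost without any 1 of 8 libraries, which were all 4 of H460, both H1703 vehicle libraries and both H441 vehicle libraries, with adjusted p up to 0.229. In HCC827 ATP6V1A had 736 and 818 against 840 and 894, and in H441 898 and 1039 against 967 and 989, and neither was called. ATP6V0E1, a small V0 subunit, had 334 and 349 in H1703 with the combination against 591 and 618 with vehicle and fell by 0.82 (adjusted p = 8.62e-06), and ATP6V1D, a subunit of the central rotor, had 327 and 345 against 498 and 530 and fell by 0.61 (adjusted p = 1.63e-05). Neither was called in another line.

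The subunits with a rise were ATP6V1B2 and ATP6V1H. ATP6V1B2, the second ATP-binding subunit in most tissues, had 371 and 375 normalised reads in H460 with the combination against 295 and 258 with vehicle and rose by 0.43 (adjusted p = 0.0234), while in H1703 it had 130 and 146 against 180 and 171 (change -0.35, adjusted p = 0.0558). Its H460 call was lost without combination replicate 1 or 2 or vehicle replicate 2 (adjusted p = 0.0694, 0.084 and 0.181). ATP6V1H, a regulatory subunit, had 211 and 231 in H1703 with the combination against 146 and 182 with vehicle and rose by 0.43 (adjusted p = 0.0308). That call was lost without combination replicate 1, combination replicate 2 or vehicle replicate 1 of H1703 (adjusted p = 0.0618, 0.163 and 0.297). ATP6V1H had 170 and 184 against 144 and 190 in H460, 188 and 196 against 204 and 206 in HCC827, and 204 and 244 against 283 and 271 in H441.

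**Figure D3:**
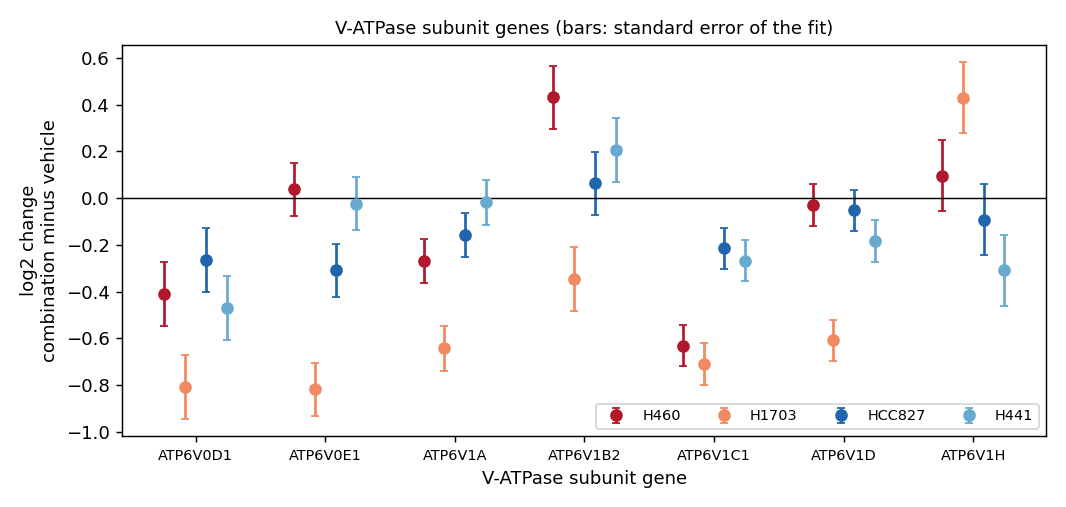
Change with the combination, on the deposited log2 scale as combination minus vehicle, for 7 V-ATPase subunit genes in 4 cell lines. Points are the fitted change and bars its standard error. In H1703, 5 points lie between -0.61 and -0.82 and ATP6V1H lies at 0.43, while most HCC827 and H441 points lie within 0.31 of zero and ATP6V0D1 lies at -0.47 in H441.

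Among genes that start the autophagosome, WIPI1 had the largest mean change of the 38 genes over the 4 lines. WIPI1 binds phosphatidylinositol 3-phosphate on the growing membrane. It had 202 and 284 normalised reads with the combination against 57.7 and 105 with vehicle in H460, and 638 and 720 against 206 and 209 in H1703. In HCC827 it had 48.2 and 90.4 against 21.8 and 32.4, and in H441 103 and 137 against 54.1 and 68.4. All combination libraries were above all vehicle libraries of the same line, but the 2 libraries of a group differed widely in H460 and HCC827. The change was 1.59 ± 0.28 in H460 (SE, adjusted p = 0.000207), 1.70 in H1703 (adjusted p = 7.03e-05), 1.23 in HCC827 (adjusted p = 0.0071) and 0.93 in H441 (adjusted p = 0.0647). The HCC827 call of WIPI1 was lost without combination replicate 2, with a change of 0.796 (adjusted p = 0.179), or without vehicle replicate 1 (adjusted p = 0.123). WIPI1 shares 828 bases of exon with ARSG on the other strand. In all 8 groups replicate 2 was higher than replicate 1 for WIPI1, ATP6V1A and GABARAP, which was so for 0.652% of 14415 genes with a mean of at least 20 normalised reads. The H441 value of WIPI1 was called without either H460 vehicle library or either HCC827 combination library (adjusted p between 0.0421 and 0.0463).

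ULK1, the kinase that starts autophagy, rose in both responsive lines. It had 642 and 521 normalised reads in H460 with the combination against 353 and 379 with vehicle, and 461 and 530 against 378 and 337 in H1703. It had 195 and 195 against 161 and 184 in HCC827, and 179 and 150 against 177 and 171 in H441, where the libraries overlapped. The change was 0.66 ± 0.13 in H460 (SE, adjusted p = 0.000748) and 0.47 in H1703 (adjusted p = 0.00891). The H1703 call of ULK1 was lost without combination replicate 2 (adjusted p = 0.106) or vehicle replicate 2 (adjusted p = 0.0973), and with median centring (0.225, adjusted p = 0.202).

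UVRAG, a partner of Beclin 1 in the lipid kinase complex, had 445 and 472 normalised reads in H1703 with the combination against 257 and 288 with vehicle and rose there by 0.75 (adjusted p = 8.67e-05). ATG9A, a membrane-spanning scramblase carried on small vesicles, had 141 and 151 in H1703 with the combination against 243 and 239 with vehicle and fell by 0.72 (adjusted p = 0.00108). Neither gene was called in another line. ATG9A shares 1833 bases of exon with AC068946.2 on the same strand, so its reads are uncertain. BECN1, which encodes Beclin 1, was called in no line, with changes between -0.22 and -0.07.

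The ATG8 proteins are small ubiquitin-like proteins that are joined to the autophagosome membrane, and of these MAP1LC3B, which encodes LC3B, changed most. MAP1LC3B had 1913 and 1825 normalised reads in H1703 with the combination against 627 and 646 with vehicle. It had 712 and 667 against 585 and 503 in H460, and 1139 and 1185 against 868 and 860 in HCC827. The H441 libraries, at 872 and 931 against 784 and 900, overlapped. Its rise in H1703 was 1.55 ± 0.09 (SE, adjusted p = 8.48e-11), against 0.34 in H460 (adjusted p = 0.00772) and 0.43 in HCC827 (adjusted p = 0.0046), and the change differed among the 4 lines (F test, adjusted p = 2.11e-07). The H460 call of MAP1LC3B was lost without combination replicate 1 (adjusted p = 0.0549) or vehicle replicate 2 (adjusted p = 0.132) and with median centring (0.149, adjusted p = 0.32), and the HCC827 call without combination replicate 2 (adjusted p = 0.0592). The near-identical copy MAP1LC3B2 makes the exact level uncertain.

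GABARAPL1, an ATG8 protein of the GABARAP branch, had 588 and 537 normalised reads in H1703 with the combination against 361 and 388 with vehicle and rose by 0.58 (adjusted p = 0.00711). That call was lost without combination replicate 1 or vehicle replicate 1 (adjusted p = 0.0712 and 0.0622), and its near-identical copy GABARAPL3 may share reads. GABARAP itself had 32.2 to 77.0 normalised reads over the 16 libraries and was called in no line. It shares 691 bases of exon with AC120057.2 on the same strand, so its reads are uncertain. The conjugation genes ATG5, part of the ligase-like complex, and ATG7, the E1-like enzyme, were called in no line, with changes between -0.08 and 0.07 for ATG5 and between 0.11 and 0.33 for ATG7.

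The 2 cargo receptors, which bind both ubiquitin and ATG8 proteins, parted in H460. SQSTM1, which encodes p62, had 4692 and 4286 normalised reads in H460 with the combination against 6451 and 5869 with vehicle. In H1703 it had 11140 and 12330 against 7867 and 7464, and in HCC827 1986 and 2187 against 1335 and 1368. In H441 it had 4547 and 5163 against 2872 and 3023. The combination libraries were the higher ones in 3 lines and the lower ones in H460, with no overlap in any line. SQSTM1 fell by 0.46 in H460 (adjusted p = 0.000145), and it rose by 0.61 in H1703 (adjusted p = 2.93e-06), by 0.62 in HCC827 (adjusted p = 2.71e-05) and by 0.72 ± 0.08 in H441 (SE, adjusted p = 2.35e-05). The change of SQSTM1 differed among the 4 lines (F test, adjusted p = 1.83e-07). SQSTM1 shares 1582 bases of exon with MRNIP on the other strand.

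NBR1, the relative of p62, had 1915 and 2471 normalised reads in H460 with the combination against 1289 and 1481 with vehicle, and 2833 and 2843 against 1792 and 1621 in H1703. It had 2428 and 2688 against 2379 and 2358 in HCC827, and 3288 and 3221 against 2578 and 2703 in H441. All combination libraries were above the vehicle libraries of their line, by the least in HCC827. NBR1 rose by 0.65 ± 0.10 in H460 (SE, adjusted p = 3.04e-05) and by 0.73 in H1703 (adjusted p = 4.81e-06), and missed the threshold in HCC827 (0.11, adjusted p = 0.586) and H441 (0.30, adjusted p = 0.0859).

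The design sets 2 responsive against 2 non-responsive lines, and the difference of their responses was tested directly. Over the responsive lines 22 of the 38 genes were called, against 38.5% of all genes, with 13 higher and 9 lower, against 20.6% and 17.9%. With median centring the split was 10 and 12, and the share of higher genes among all called was 32.2%, against 53.6% as deposited. Over the non-responsive lines 13 were called, against 12.3%, with 10 higher and 3 lower, against 6.25% and 6.05%. Without HCC827 combination replicate 2 the count was 8. The difference of responses, responsive minus non-responsive, was called for 14 genes, against 23.3%, with 7 higher and 7 lower, against 11.2% and 12.1%. With median centring this split was 3 higher and 12 lower, and the share of higher genes among all called was 23.9%, against 48% as deposited.

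NPC1 and MITF had the largest positive differences and GLA the largest negative one. The NPC1 change was 1.01 in the responsive class and 0.07 in the non-responsive class, a difference of 0.94 ± 0.08 (SE, adjusted p = 6.24e-08). For GLA the changes were -1.29 and 0.04, a difference of -1.32 ± 0.14 (adjusted p = 7.47e-07). MITF had 0.64 and -0.32, a difference of 0.96 (adjusted p = 5.21e-06), although its value in H441 was positive and that in HCC827 negative. MAP1LC3B had 0.95 and 0.26, a difference of 0.68 (adjusted p = 1.34e-05), with 1.55 in H1703 and 0.34 in H460. These 4 genes kept their calls of the difference under all 24 alternatives run on it.

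The remaining differences were smaller. SQSTM1 had a change of 0.08 in the responsive class and 0.67 in the non-responsive class, a difference of -0.59 (adjusted p = 1.08e-05), but its values in H460 and H1703 had opposite signs, so the mean of the responsive lines describes neither. LAMP1 (-0.53, adjusted p = 0.00022) and CTSB (-0.50, adjusted p = 1.61e-05) fell in the mean of the responsive lines and rose in that of the non-responsive lines. Of the responsive lines, only H1703 had a called fall of either gene. In H460 the ratio of combination to vehicle means was 0.974 for LAMP1 and 1.031 for CTSB. ATP6V1C1 (-0.43, adjusted p = 0.00118) and ATP6V1A (-0.37, adjusted p = 0.00704) had the more negative change over the responsive lines. GAA (0.56, adjusted p = 0.013), ULK1 (0.52, adjusted p = 0.00676) and NBR1 (0.49, adjusted p = 0.000857) had the more positive change there, but with median centring these 3 calls were lost (adjusted p = 0.107, 0.0949 and 0.0531). TFE3 (-0.34, adjusted p = 0.0233) lost its call without any 1 of 5 libraries, which were H460 vehicle replicate 2, H1703 combination replicate 1, H1703 vehicle replicate 1, HCC827 combination replicate 2 and H441 combination replicate 2 (adjusted p = 0.0556, 0.0583, 0.0556, 0.0653 and 0.0502). ATP6V1H (0.46, adjusted p = 0.0297) lost its call under 12 of the 24 alternatives, with adjusted p up to 0.256. The libraries among them were H460 combination replicate 2 (adjusted p = 0.0547), H460 vehicle replicate 1 (0.0883), H1703 combination replicate 2 (0.0686), H1703 vehicle replicate 1 (0.09), HCC827 combination replicate 1 (0.0576), HCC827 vehicle replicates 1 and 2 (0.0518 and 0.0572), H441 combination replicate 1 (0.0805) and H441 vehicle replicate 1 (0.0615). CTSL, higher in all 4 lines, had a difference of 0.39 ± 0.14 that missed the threshold (SE, adjusted p = 0.0565), and WIPI1 had 0.56 ± 0.28 (adjusted p = 0.174). The difference was called for CTSL without H460 combination replicate 1, HCC827 vehicle replicate 2 or H441 combination replicate 1 (adjusted p = 0.0319, 0.0475 and 0.00153), and for WIPI1 without HCC827 combination replicate 2 (adjusted p = 0.0463).

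**Figure D4:**
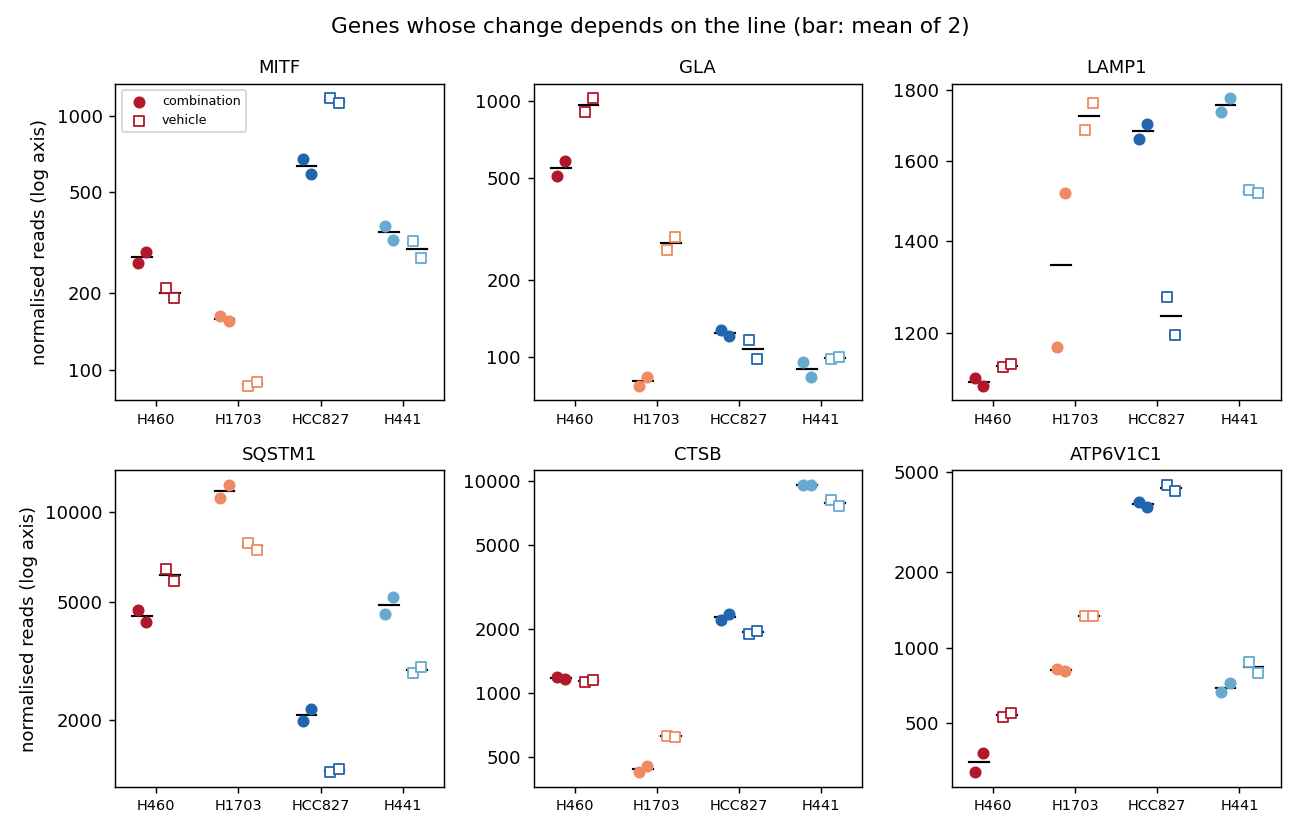
Normalised reads (log axis) of MITF, GLA, LAMP1, SQSTM1, CTSB and ATP6V1C1 in all 16 libraries, by cell line. Filled circles are combination libraries, open squares vehicle libraries, and bars the mean of 2. MITF is lower with the combination in HCC827 alone, SQSTM1 is lower in H460 alone, and GLA is lower by a wide gap in H460 and H1703.

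The same system was also read through 4 further gene lists with no gene in common with the 38. Of 44 other lysosomal enzyme, membrane and sorting genes, 12 were called in H460 (9 higher, 3 lower), 28 in H1703 (19 and 9), 8 in HCC827 (7 and 1) and 3 in H441 (2 and 1). These are 27.3%, 63.6%, 18.2% and 6.82% of the list, against 26.7%, 35.5%, 9.92% and 4.63% of all genes tested. Their median changes were 0.19, 0.26, 0.19 and 0.13. IDUA, the alpha-iduronidase, rose by 2.10 in H460 (adjusted p = 4.68e-05) and by 1.81 in H1703 (adjusted p = 0.000172), with 74.4 and 49.0 normalised reads against 7.83 and 18.1 in H460. It had changes of 0.30 in HCC827 and -0.11 in H441 (adjusted p = 0.667 and 0.951). CD68, a membrane glycoprotein of lysosomes best known in macrophages, had 22.9 and 15.8 normalised reads in H1703 with the combination against 1.95 and 0.701 with vehicle, a ratio of 15.3 from 41 and 3 reads (95% exact interval 4.89 to 77.4, adjusted p = 0.000289). The ratio of CD68 was 3.83 in HCC827 (1.95 to 8.22), 1.35 in H460 (0.544 to 3.37) and 1.5 in H441 (0.815 to 2.85), none of them called. ARSB, the arylsulfatase B, fell by 1.91 in H1703 (adjusted p = 4.89e-09), and LAPTM4B, a membrane protein of late endosomes, fell by 1.58 there (adjusted p = 6.67e-09) and by 0.41 in HCC827 (adjusted p = 0.0486) but rose by 0.46 in H441 (adjusted p = 0.0441).

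Of 16 further V-ATPase and accessory genes that passed the filter (ATP6V1B1 did not), 5 were called in H460 (3 higher, 2 lower), 6 in H1703 (2 and 4), 2 in HCC827 (both higher) and none in H441, where 3 had an unadjusted p under 0.05 and limma voom called 1. The called shares of 31.2%, 37.5% and 12.5% in the first 3 lines were near those of all genes. Their median change in H1703 was -0.03, against -0.64 for the 7 subunit genes above. ATP6V0A2, an isoform of the largest V0 subunit, fell by 0.47 in H460 (adjusted p = 0.00145) and rose by 0.75 in H1703 (adjusted p = 6.85e-06) and by 0.53 in HCC827 (adjusted p = 0.00227). ATP6V0A1, its paralog, fell by 0.50 in H460 (adjusted p = 0.00109). ATP6V1C2, the paralog of ATP6V1C1, fell by 0.45 in H1703 (adjusted p = 0.00196), and ATP6V1F rose by 0.48 in HCC827 (adjusted p = 0.00624).

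Among 39 other autophagy genes, 16 were called in H460 (11 higher, 5 lower), 15 in H1703 (10 and 5), 5 in HCC827 (1 and 4) and 1 in H441 (higher). These are 41.0%, 38.5%, 12.8% and 2.56% of the list, against the same shares of all genes as above. WDR45, of the same protein family as WIPI1, rose by 0.97 in H460 (adjusted p = 0.000484), by 1.29 in H1703 (adjusted p = 1.45e-05) and by 0.75 in HCC827 (adjusted p = 0.0126), and its value in H441 was -0.04. WIPI2, also of that family, fell by 0.80 in H1703 (adjusted p = 6.1e-07). OPTN, another cargo receptor, rose by 1.27 in H460 (adjusted p = 9.97e-06) and by 1.04 in H1703 (adjusted p = 7.2e-05). GABARAPL2, an ATG8 protein, fell by 0.68 in H1703 (adjusted p = 0.000262) and by 0.61 in HCC827 (adjusted p = 0.00376).

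Of 22 genes that link mTORC1 and folliculin to the MiT factors and passed the filter (TFEC did not), 6 were called in H460, all higher, and 13 in H1703 (9 higher, 4 lower). There were 4 in HCC827 (2 and 2) and 6 in H441 (4 and 2). The called share was 27.3% in H460, near that of all genes (26.7%). It was 59.1%, 18.2% and 27.3% in H1703, HCC827 and H441, against 35.5%, 9.92% and 4.63% of all genes. SESN2, a stress-induced inhibitor of mTORC1, had 600 and 419 normalised reads in H460 with the combination against 62.6 and 65.3 with vehicle, 648 and 794 against 142 and 157 in H1703, 281 and 385 against 70.3 and 88.1 in HCC827, and 266 and 347 against 186 and 160 in H441. SESN2 rose in all 4 lines, by 2.92, 2.24, 2.03 and 0.81 (adjusted p = 3.91e-10, 9.95e-09, 6.62e-07 and 0.0152). DDIT4, another inhibitor of mTORC1, rose in all 4 as well, by 1.45, 1.76, 1.65 and 1.12 in the same order (adjusted p = 2.04e-08, 9.02e-10, 4.29e-08 and 2.44e-05). FNIP2, a folliculin partner, fell in H1703, HCC827 and H441, by 0.66, 0.74 and 0.76 (adjusted p = 0.000214, 0.000458 and 0.000815), and SESN3 fell in the same 3 lines by 0.50, 1.39 and 0.67 (adjusted p = 0.00697, 1.37e-06 and 0.00651).

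In vehicle the lines differed from each other in 35 of the 38 genes by a moderated F test, against 73.4% of all genes, and GLB1, HEXA and GABARAP were the 3 not called. Levels per kilobase of annotated exon, as means of the 2 vehicle libraries, were led by PSAP, with 727 normalised reads per kb in H460, 1454 in H1703, and 1243 and 1159 in HCC827 and H441. CTSL came next over the mean of the lines but differed far more between them, with 2115, 175, 111 and 35.6 per kb in the same order, a 59.4-fold range. SQSTM1 had 805, 1002, 177 and 385 per kb in the same order. The lowest levels per kb were those of TFEB, HEXA and MCOLN1, with means over the lines of 9.26, 10.7 and 14.2. The length was that of all annotated exons of a gene together, not of its expressed transcript, so these ranks depend on it. HEXA had vehicle means of 121.1 to 151.5 normalised reads in the lines, more than the 38.29 to 57.87 of GABARAP.

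Other genes were marked by 1 line. CTSB reached 1066 per kb in H441, against 84.3 in H1703, and ATP6V1C1 reached 741 in HCC827, against 92.3 in H460. CTSZ had 447 per kb in H460 and 0.172 in H1703, where a single read was found in the vehicle libraries. MITF had 160 per kb in HCC827, the line in which it fell with the combination, and 12.3 in H1703, the line of its largest rise. GLA had 425 per kb in H460 and 122 in H1703, against 47.2 and 43.5 in HCC827 and H441. The 2 lines in which GLA fell were those with the higher vehicle levels. For GLA as for MITF, the change is measured from the vehicle level, so level and change are not independent. LAMP1, MAP1LC3B and BECN1 differed far less, over 1.51-fold, 1.59-fold and 1.47-fold ranges.

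**Figure D5:**
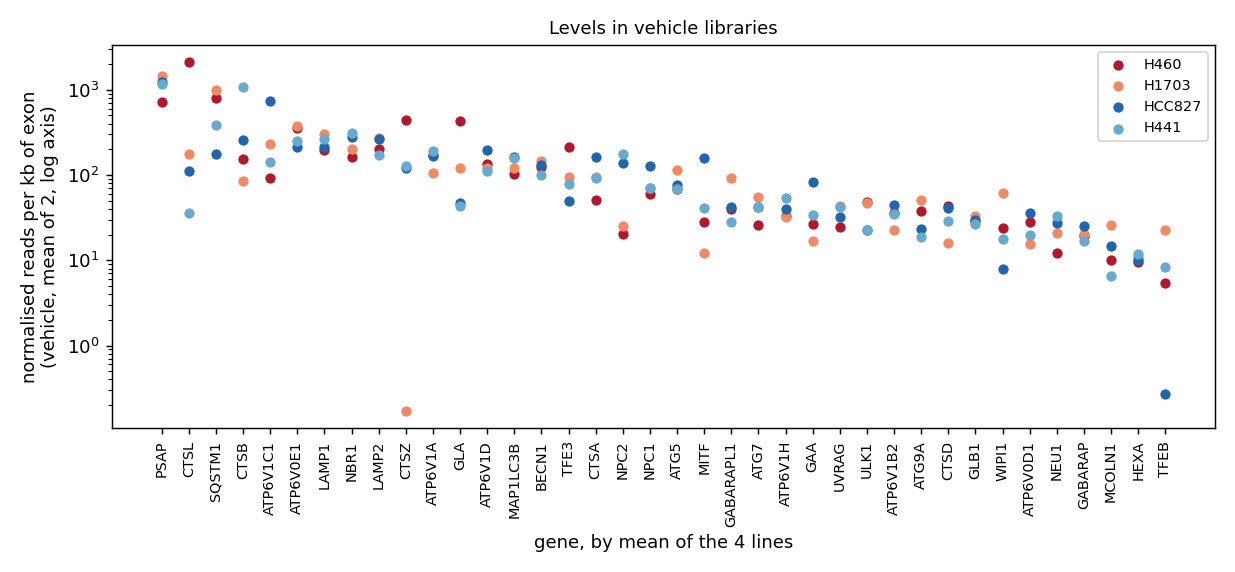
Normalised reads per kilobase of exon (log axis) in vehicle for the 38 genes, ordered by the mean of the 4 lines. Each point is the mean of 2 libraries of a line. PSAP leads with 727 to 1454, CTSL runs over a 59.4-fold range, and CTSZ in H1703 and TFEB in HCC827 lie far below their other lines.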

How the data were processed

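Total RNA of 16 libraries (2 per line and treatment) was prepared with a SMARTer stranded kit, per the labels. The submitters' processing notes name Trimmomatic, STAR and featureCounts and the build hg38 (GRCh38), without versions. No annotation release or strand setting is given in these sources. What the authors deposited are variance-stabilised gene values on a log2 scale, already scaled between libraries, for 28951 genes. Their lowest value, 0.480538, stands for 0 reads. Inverting the scale returned whole reads (tolerance 0.02) in 100% of cases. A gene ID was matched to its symbol through GENCODE 29 (28846 IDs matched).

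Genes whose mean lay at least 1 above the lowest value were tested (23968 kept, 4983 removed). One limma 3.58.1 fit in R 4.3.3 of the 8 group means on the log2 values, with trend and robust empirical Bayes, gave each change, and p was adjusted by Benjamini and Hochberg over all genes tested. The script was tested on simulated data. Intervals from reads are exact binomial at 95%, and cover counting error only. Across the genes tested as a whole, same-numbered libraries of a line did not deviate together (correlations of 0.03, 0.01, 0.03 and 0.02 in H460, H1703, HCC827 and H441), so no block was used. Alternatives were other scalings, filters, limma settings and fits, voom on the recovered reads (chosen after the data were seen), and each library left out.

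The genes, lists and the naming rule were chosen with earlier results of these data known. Library values are given for the MiT factors, genes called in all 4 lines, genes called in the difference of responses and the gene of each role with the largest mean change; other genes of the pathway are the 2 largest rises and 2 largest falls of each list among genes called in any line. Values of further genes of a role were added after they were seen. Tables and figures used Python 3.11.15, numpy 2.4.6, pandas 2.3.3, scipy 1.17.1 and matplotlib 3.10.9.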

Additional observations from a re-analysis of the deposited data

Results flagged for a closer look

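The response to the combination differed between the responsive and non-responsive lines for 14 of the 38 genes, by limma's test of that difference on the log2 scale. Values are the change over the responsive lines minus that over the non-responsive lines. The response of NPC1 (0.94), MITF (0.96), MAP1LC3B (0.68), GAA (0.56), ULK1 (0.52), NBR1 (0.49) and ATP6V1H (0.46) was the more positive one in the mean of the responsive lines. That of GLA (-1.32), SQSTM1 (-0.59), LAMP1 (-0.53), CTSB (-0.50), ATP6V1C1 (-0.43), ATP6V1A (-0.37) and TFE3 (-0.34) was the more negative one. Single lines did not always follow the mean of their class. MAP1LC3B rose by 0.34 in H460 and by 0.43 in HCC827, and SQSTM1 fell in H460 and rose in H1703. Each class holds 2 lines, so a trait of a class and a trait of its lines cannot be told apart.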

How the results depend on the processing

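No change of a single gene that was called turned its sign under any of the 25 alternatives. Of 190 results on single genes 72 were called, 42 of these in every alternative, and 30 lost the call in at least 1. Of those not called, 28 were called in at least 1 alternative, among them ATP6V1B2 in H1703 (lower with median centring, quantile normalisation and the stricter filter, adjusted p = 0.00362, 0.0342 and 0.0393), BECN1 in H1703 (lower with median centring, -0.463, adjusted p = 0.00106) and ATP6V0D1 in H441 (lower with the stricter filter, adjusted p = 0.0404). Leaving out either H460 combination library also added the H441 calls of ATP6V0D1 (0.0448 and 0.0444), ATP6V1C1 (0.0404 and 0.0408), NBR1 (0.0214 and 0.0215) and LAMP2 (0.019 and 0.0191). Single libraries likewise added the difference of ATG9A (without H460 vehicle replicate 1, 0.0173, or H441 combination replicate 1, 0.0346), HEXA (without H460 vehicle replicate 2, 0.0312, or HCC827 combination replicate 2, 0.0472) and NEU1 (without H460 vehicle replicate 1, 0.047). With neither the trend nor the robust setting, 3 of the 38 genes were called in HCC827, 1 in H441, 7 over the non-responsive lines and 14 among the lines, against 11, 3, 13 and 23. A fit of the 4 libraries of a line alone gave 6 in HCC827 and 0 in H441, where 10 had an unadjusted p under 0.05 and limma voom on all libraries called 4. The stricter filter gave 5 in H441. With the replicate block 6 were called in H441 against 3, and the other counts of calls stayed within 1.5 times. The labels do not say whether libraries of the same replicate number share a batch. The block added the calls of WIPI1, NBR1 and LAMP2 in H441 (adjusted p = 0.00467, 0.0255 and 0.0158), of CTSD and ATP6V1B2 in H1703 (0.048 and 0.0317) and of WIPI1 in the difference (0.0229), and removed that of NPC2 in H460 (0.0521). Leaving out 1 library gave 13 to 19 genes in H460, 21 to 26 in H1703, 5 to 11 in HCC827 and 1 to 7 in H441. It gave 20 to 23 over the responsive lines, 8 to 15 over the non-responsive lines, 12 to 15 for the difference, 19 to 24 among the lines and 35 in vehicle. Where a group was left with 1 library, that library is assumed to vary like the other groups. A count-model quasi-likelihood test was planned and not run, since the deposited unit is log2. The cause of these shifts was not tested. The depth limits CTSZ in H1703 and TFEB in HCC827, with 5 reads or fewer in a group.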
